A study of Homo sapiens with 33 samples.

Results

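The regions described here are clusters of irCLIP reads bound by hnRNPA1 that lie around cassette exons, the exons that a transcript can include or skip as a unit. irCLIP crosslinks a protein to RNA with ultraviolet light, isolates the pair and sequences the bound RNA, so that a cluster marks a stretch of RNA with many bound reads. A cluster was taken when it overlapped, on the same strand, an exon listed as skipped in the deposited cassette exon tables or the 300 nt on either side of it. By this rule 2853 of 2075166 clusters were found, after repeated rows were removed, in 4 lists. The lists held 771 of 564935 clusters (0.136%) for SH-SY5Y WT, 745 of 522411 (0.143%) for SH-SY5Y D262V, 676 of 510910 (0.132%) for Flp-In WT and 661 of 476910 (0.139%) for Flp-In D262V.

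The series followed D262V, an ALS-linked substitution in the C-terminal low complexity domain of hnRNPA1, and asked how it alters splicing. SH-SY5Y is a human neuroblastoma line. Its undifferentiated groups were WT cells and cells homozygous for the hnRNPA1 D262V mutation, and its differentiated groups were WT, homozygous D262V and heterozygous D262V cells after 18 d of a protocol that includes retinoic acid at 10 µM and BDNF at 50 ng/mL. Flp-In T-REx 293 is a human embryonic kidney line; its cells carried a tetracycline-inducible hnRNPA1, either WT or D262V, and both groups received 1 µg/mL tetracycline for 72 hr. The line keeps its own HNRNPA1 gene beside the induced copy. The irCLIP labels give WT and mutant without a zygosity for SH-SY5Y, and no label gives the number of clones or separate cultures, so the p-values below measure only the spread between these libraries. Each group had 3 RNA-seq or 3 irCLIP libraries, and the authors merged the 3 irCLIP libraries of a group into 1 list, so a difference between lists has no replicate check.

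hnRNPA1 is an abundant nuclear RNA-binding protein that shuttles between nucleus and cytoplasm. Textbook cases describe it as a splicing repressor that binds UAGG-like elements in exons and flanking introns and competes with SR proteins for nearby splice sites, and it can also favour inclusion of some exons. Its low complexity domain takes part in the protein's assembly into granules. The 3′ splice site is the end of the intron before an exon, and the 5′ splice site is the start of the intron after it.

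One cluster lay wholly inside a sequence window at hand, and it is shown as an example of what a cluster is. It came from the SH-SY5Y WT list, had a score of 199 and lay upstream of a cassette exon of HDAC9, a histone deacetylase, at chr7:18495595-18495793 (hg38, plus strand), before the exon at chr7:18495958-18496023. The cluster ended before the start of the intron that precedes this exon, so it did not lie in that intron. The sequence is that of RefSeq (GRCh38.p14), with TAGG, the DNA form of the UAGG element, in capitals.
HDAC9: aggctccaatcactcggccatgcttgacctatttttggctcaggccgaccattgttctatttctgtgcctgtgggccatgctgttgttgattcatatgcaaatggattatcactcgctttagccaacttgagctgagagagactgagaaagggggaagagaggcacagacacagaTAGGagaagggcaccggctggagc
TAGG occurred 1 time on the cluster's strand and 1 time on the other strand. Among 35116 promoter windows of the same length, 37.9% held TAGG on the gene's strand and 37.7% on the other. The HDAC9 exon differed by 9.88 percentage points between D262V and WT (edgeR quasi-likelihood test, adjusted p = 0.426). Sequences of the other clusters were not analysed here.

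Inclusion of an exon was the mean of the deposited percentage usage of its 2 inclusion junctions, and a change is D262V minus WT in percentage points. The deposited tables list only events at an unadjusted p of at most 0.05 in the authors' own test, so the exons were already selected for a difference, and every adjusted p below is adjusted over listed exons only. The undifferentiated SH-SY5Y table gave 1425 exons, of which 1276 had at least 20 junction reads in every library, and the Flp-In table gave 1087 and 1009. These exons drew 481986 to 882342 junction reads per SH-SY5Y library and 392066 to 559125 per Flp-In library. In gene counts, 8 of 10 SH-SY5Y markers were above 1 CPM in every SH-SY5Y library and the defining markers TH and CHGA were at 0, while 1 of 4 markers of the 293 line passed in Flp-In. That marker, NEFL, passed in every SH-SY5Y library too (24.7 to 39.0 CPM, against 46.4 to 94.6 in Flp-In), so it does not tell the lines apart. HNRNPA1 ran from 37.4 to 43.7 CPM in SH-SY5Y WT and from 25.5 to 42.6 in homozygous D262V libraries, and from 188 to 205 and 166 to 273 in Flp-In WT and D262V libraries. Flp-In gene counts summed to only 1994575 to 2914881 per library, while 1 HNRNPA1 exon event alone drew at least 10582 junction reads in each. The gene counts thus missed most reads of HNRNPA1. Neither these HNRNPA1 values nor the marker counts can be taken as expression levels, and the cause was not tested.

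About 1 in 3 listed exons had a cluster. In SH-SY5Y, 457 of 1425 exons (32.1%) had one in the WT list and 454 (31.9%) in the D262V list. In Flp-In, 409 of 1087 exons (37.6%) had one in the WT list and 399 (36.7%) in the D262V list. Most of these exons were the same ones in both lists of a line: 402 SH-SY5Y exons were in both, 55 in the WT list only and 52 in the D262V list only, and the Flp-In counts were 358, 51 and 41. Several clusters shared an exon in many cases, with 2 or more on 180, 167, 153 and 144 exons in the order SH-SY5Y WT, SH-SY5Y D262V, Flp-In WT, Flp-In D262V, and up to 13 on 1 exon. Clusters that share an exon share one transcript and are not independent observations.

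The WT and D262V clusters largely covered the same RNA. In SH-SY5Y, 673 of 771 WT clusters (87.3%) overlapped a D262V cluster and 653 of 745 D262V clusters (87.7%) overlapped a WT cluster, and in Flp-In the counts were 584 of 676 (86.4%) and 592 of 661 (89.6%). Both ends were identical for 18 clusters in SH-SY5Y and 10 in Flp-In. Clusters found in a single list had low scores: the median was 23.5 (WT) and 20.5 (D262V) in SH-SY5Y against 63 and 64 for overlapping ones, and 28 and 24 in Flp-In against 64 and 62. Scores were given by the authors' cluster caller, in a unit that no label or file header names, and no score is compared across lists as a change in binding.

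Most clusters lay in the flanks, which also make up most of each window. The flanks hold 300 nt each, against a median listed exon of 109 nt in SH-SY5Y and 111 nt in Flp-In. A flank can also reach past a short intron into the neighbouring exon. Among exons with a cluster, the upstream intron was under 300 nt for 61 of 509 in SH-SY5Y and 56 of 450 in Flp-In. Between 32.7% and 34.1% of the clusters in each list lay in the upstream flank alone and between 30.0% and 32.5% in the downstream flank alone. Clusters inside the exon made up 11.8% to 14.2%, clusters over the 3′ splice site 6.85% to 9.32%, clusters over the 5′ splice site 9.66% to 10.9%, and clusters that spanned the whole exon 3.76% to 5.91%. The median cluster was 153, 150, 142 and 137 nt long in the order of lists given above, against 150, 146, 130 and 124 nt for the full lists. Their median scores were 55, 53, 55 and 55, against 55, 53, 45 and 44, so that the Flp-In clusters near cassette exons scored above their lists and the SH-SY5Y clusters did not. At the limits of the window, within 25 nt of the limit 55, 51, 39 and 27 clusters lay just inside and 45, 56, 36 and 38 just outside.

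The profile in steps of 25 nt had its low point just before the exon. In the step that starts 75 nt before the 3′ splice site, 4.77% (WT) and 4.42% (D262V) of listed SH-SY5Y exons and 6.07% and 4.78% of listed Flp-In exons were covered by a cluster. The Flp-In WT list was lowest 1 step earlier, at 5.80% in the step that starts 100 nt before the splice site. In the step that starts 300 nt before it, coverage was 10.7% and 10.4% in SH-SY5Y and 12.5% and 11.2% in Flp-In. In the step that starts 50 nt before the 5′ splice site, 9.20% and 8.82% of SH-SY5Y exons and 11.9% and 11.5% of Flp-In exons were covered. Coverage was lower after the exon, at 6.60%, 7.30%, 7.54% and 7.54% at 50 nt into the intron, and stood at 9.68%, 9.40%, 10.5% and 9.84% at 275 nt.

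**Figure D1:**
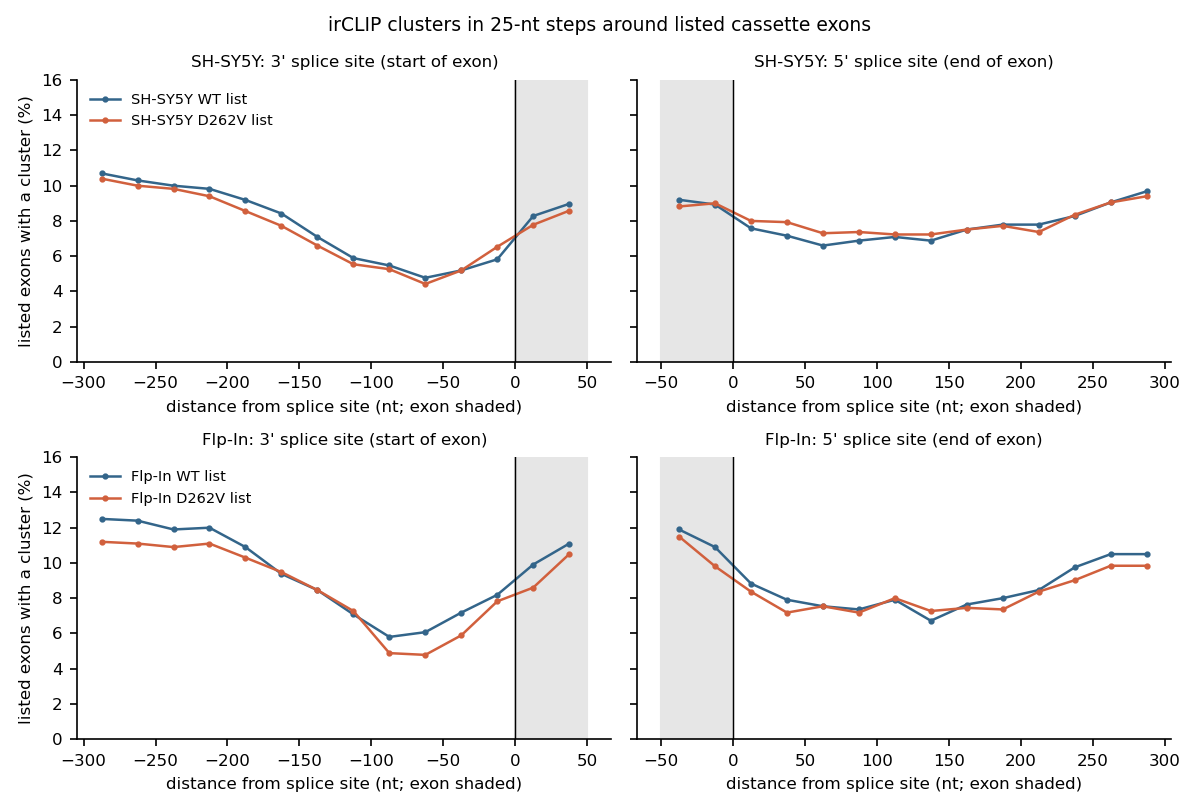
Percent of listed cassette exons with a cluster (y axis) in each 25-nt step by distance from the 3′ and 5′ splice site in nt (x axis), for the WT (blue) and D262V (orange) lists of SH-SY5Y and Flp-In, with the exon shaded. All 4 lists have their low point in the 100 nt before the 3′ splice site, and the WT and D262V lines run close to each other.

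The 2 splice sites of the cassette exon had clusters in shares like those of the neighbouring splice sites of the same events. For events with both introns of at least 600 nt (856 in SH-SY5Y), 21.1% had an SH-SY5Y WT cluster in the 300 nt of intron before the cassette exon and 20.9% in the 300 nt after it. The intron next to the upstream exon had one in 21.8% and the intron next to the downstream exon in 22.4%. In Flp-In WT (634 events) these values were 26.7%, 24.4%, 24.6% and 23.0%. The D262V lists gave 22.8%, 21.6%, 21.5% and 21.8% in SH-SY5Y and 24.8%, 21.8%, 25.1% and 21.8% in Flp-In.

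Exons with a cluster had longer introns and more junction reads than listed exons without one. In SH-SY5Y the median upstream intron was 1912 nt with a cluster and 1538 nt without, the median downstream intron 2186 and 1364 nt, and the median of mean junction reads 278 and 238. In Flp-In these medians were 1694 and 1291 nt, 1606 and 1413 nt, and 223 and 148 reads. Median WT inclusion was 87.8% with a cluster and 90.8% without in SH-SY5Y, and 86.7% and 89.8% in Flp-In. The part of transcript level in which exons had a cluster was not tested.

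Exons were classed by inclusion change. In Flp-In, edgeR's quasi-likelihood test (adjusted p under 0.05, a change of at least 10 points, no overlap between groups) called 49 of 1009 exons more included (4.86%) and 64 more skipped (6.34%). With TMM scaling the calls were 61 and 32, and the more included share of calls went from 43.4% to 65.6%; with DESeq2 and its size factors they were 44 and 16, a share of 73.3%, so the balance of the 2 directions depends on the scaling. The counts also fell when a library was left out, to 14 and 24 without WT replicate 1, 17 and 19 without WT replicate 2, and 15 and 33 without D262V replicate 3, while the more included count fell to 26 and 27 without D262V replicates 1 and 2. In SH-SY5Y the same test called 0 of 1276 exons in either direction (0.0%), with 397 at an unadjusted p under 0.05 and a smallest adjusted p of 0.139; DESeq2 called 71 and 59.

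SH-SY5Y exons were therefore classed by usage alone, a rule chosen after the test had called none: a change of at least 10 points, no overlap between groups, and no test. By it 154 of 1276 exons were more included in D262V (12.1%) and 100 more skipped (7.84%). These are descriptions of 6 libraries, and over all tested exons the groups did not overlap in 531 (41.6%) in SH-SY5Y and in 678 (67.2%) in Flp-In. SH-SY5Y junctions varied more between libraries of a group than those of Flp-In, with a median SD of the log2 inclusion odds of 1.72 against 0.758, and 32.0% of its exon values rested on 0 skipping reads against 10.5% in Flp-In.

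In SH-SY5Y, fewer of the more skipped exons had a cluster than of the other classes. A cluster of either list was near 62 of 154 more included exons (40.3%, 95% exact Clopper-Pearson interval 32.4% to 48.5%), 26 of 100 more skipped exons (26.0%, 17.7% to 35.7%) and 381 of 1022 exons that were not shifted (37.3%, 34.3% to 40.3%). The intervals cover counting error only, and those of the first 2 classes overlap. With 1 library left out at a time the shares stayed at 38.2% to 40.6% for more included and 25.7% to 29.6% for more skipped exons. At a change of 5 points in place of 10 the WT list gave 35.0% and 29.7% and the D262V list 34.5% and 31.6%, a smaller gap. With the authors' deposited adjusted p added to the rule, the more included shares were lower, as given in the last section. The difference was present in both flanks: the upstream flank had a cluster in 27.9% of more included, 13.0% of more skipped and 22.7% of other exons, and the downstream flank in 27.3%, 15.0% and 23.2%. The exon itself had one in 19.5%, 12% and 13.8%. The WT and D262V lists gave 22.0% and 25% for more skipped exons, and 35.1% and 36.4% for more included ones. Read depth moved with the classes, with a median of 196, 172 and 331 junction reads per library, and its part in the shares was not tested.

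Set the other way, 62 of the 469 tested SH-SY5Y exons with a cluster were more included (13.2%, against 12.1% of all tested exons) and 26 more skipped (5.54%, against 7.84%). Without a cluster the shares were 11.4% and 9.17% of 807. The distance profile showed the difference on both sides of the exon. In the step that starts 200 nt before the 3′ splice site, 14.9% of more included exons had a WT cluster and 15.6% a D262V cluster, against 7.0% of more skipped exons in each list. In the step that starts 75 nt after the 5′ splice site, 11.0% and 13.0% of more included exons had one, against 6.0% and 4.0% of more skipped exons. For introns of at least 600 nt, WT clusters lay before and after more skipped exons in 14.9% and 11.9% of 67 events, yet at the neighbouring exons of the same events in 25.4% and 25.4%. For 93 more included events the 4 values were 25.8%, 28.0%, 25.8% and 22.6%.

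**Figure D2:**
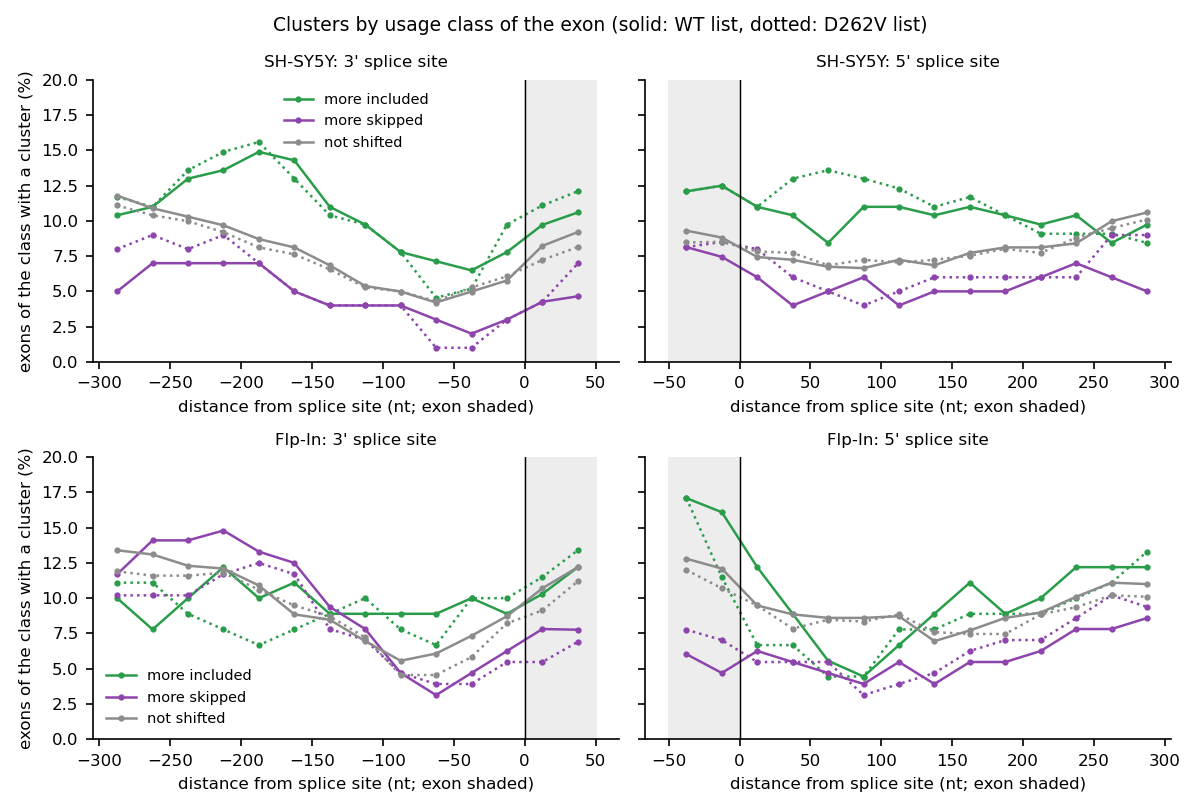
Percent of exons with a cluster (y axis) by distance from the 3′ and 5′ splice site in nt (x axis), for exons that were more included, more skipped or not shifted in D262V, classed by usage in both lines. Solid lines are the WT list and dotted lines the D262V list, and in SH-SY5Y the more included exons lie above the more skipped ones over most of both panels.

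In Flp-In, exons called more skipped had clusters no less often than exons that were not called. In the D262V list more included exons did stand above more skipped ones, as in SH-SY5Y. Clusters of the WT list were near 44.9% of 49 more included exons (30.7% to 59.8%), 43.8% of 64 more skipped exons (31.4% to 56.7%) and 37.9% of 896 others, and clusters of the D262V list near 51.0% (36.3% to 65.6%), 39.1% (27.1% to 52.1%) and 36.6%. The intervals of the called classes overlap in both lists. Of the 427 tested exons with a cluster, 25 rose in inclusion (5.85%, against 4.86% of all tested exons) and 30 fell (7.03%, against 6.34%), shares near the background. By the usage rule applied to SH-SY5Y, either list had a cluster near 46.7% of 90 more included (8.92% of tested exons), 43.0% of 128 more skipped (12.7%) and 41.7% of other exons.

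**Figure D3:**
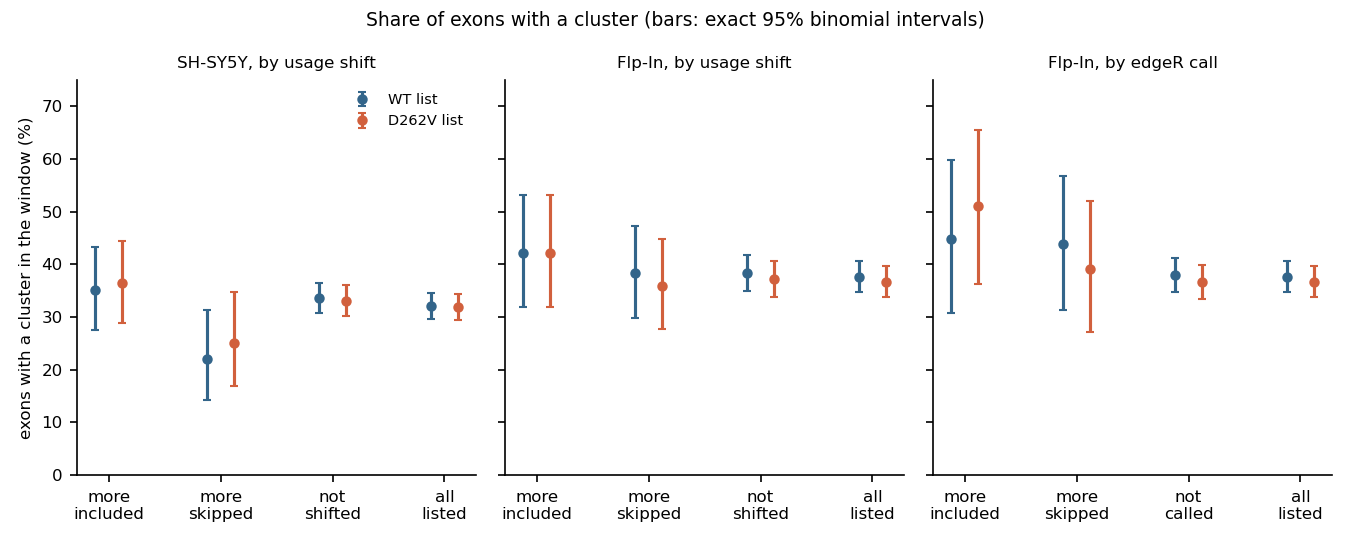
Percent of exons with a cluster (y axis) by inclusion class for the WT and D262V lists of each line, with 95% exact intervals as error bars, which cover counting error only. In SH-SY5Y the more skipped class stands lowest at 22.0% and 25%, and the intervals of the more included and more skipped classes overlap in both lines.

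The highest scored clusters sat beside exons with small and with large differences. In SH-SY5Y the top score was 2402 in the WT list and 2235 in the D262V list, both upstream of an exon of NUMA1, a protein of the mitotic spindle pole, at chr11:72008092-72008145. Its inclusion was 1.24%, 2.36% and 0.375% in WT and 1.59%, 3.00% and 6.69% in D262V libraries, with overlapping groups. BCOR, a transcriptional corepressor, had a cluster scored 1646 (WT) and 801 (D262V) that ended 223 and 222 nt before its exon at chrX:40071637-40071690. BCOR inclusion was 63.0%, 86.5% and 45.0% in WT and 87.4%, 93.3% and 86.3% in D262V libraries, a difference of 24.2 points with overlapping groups (adjusted p = 0.204). PAXBP1 had a downstream cluster scored 1282 and 752, and an exon at 0% in all 3 WT libraries and at 3.5%, 0.91% and 4.53% in D262V.

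GTF2I, which encodes the transcription factor TFII-I, also had a high score. Its WT cluster, scored 1056, began 89 nt after the 5′ splice site of the exon at chr7:74718879-74718941, and its D262V clusters, scored 895 and 888, began 44 and 150 nt after it. Inclusion was 44.4%, 40.8% and 58.9% in WT and 69.9%, 72.6% and 69.8% in D262V libraries, a difference of 22.7 points on at least 1141 junction reads per library (adjusted p = 0.254). NUP54, a nuclear pore protein, had a cluster scored 951 and 669 beginning 63 and 86 nt after its exon, which was at 100% in all 3 WT and at 92.8%, 89.1% and 83.7% in D262V libraries (adjusted p = 0.139).

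In Flp-In the top score, 3243, was in the D262V list, upstream of an exon of the RAB4B-EGLN2 readthrough gene at chr19:40783778-40783840, where the WT list had clusters scored 1616 and 1573. Inclusion was 94.0%, 87.4% and 89.6% in WT and 82.1%, 82.1% and 73.6% in D262V libraries, without overlap, and the test put it at the threshold (adjusted p = 0.05), so it was not called. Reads of this locus may be shared with the genes it joins. ZC3H7A, a zinc finger RNA-binding protein, had downstream clusters scored 1374 and 1479 beginning 221 and 237 nt after an exon at 87.1% ± 2.28 (SD, n = 3) in WT and 94.1% ± 2.57 (SD, n = 3) in D262V. YTHDF2, a reader of methylated adenosines, had a D262V cluster scored 1255 beginning 108 nt after an exon at 94.8% and 92.0%.

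Exons named for the size of their difference had at least 50 junction reads in every library. Among such SH-SY5Y exons with a cluster and higher inclusion in D262V, GEMIN8, a component of the SMN complex that assembles spliceosomal snRNPs, differed most. Some exons with fewer reads differed more, such as that of KIAA1109, chosen after its values were seen, by 59.0 points. The GEMIN8 exon at chrX:14026140-14026221 was included at 41.0%, 31.6% and 52.3% in WT and at 77.0%, 93.0% and 71.9% in D262V libraries, a difference of 39.0 points without overlap (edgeR adjusted p = 0.139). A WT cluster scored 33 spanned the whole exon and the D262V list had none there. KIF2A, a microtubule-depolymerising kinesin, was at 34.7%, 62.3% and 45.2% in WT and 77.5%, 88.8% and 71.0% in D262V libraries (31.7 points, adjusted p = 0.168). Its upstream clusters scored 559 (WT) and 623 (D262V) and ended 145 and 85 nt before the exon at chr5:62372438-62372551. Both lists therefore had a strong upstream cluster beside this exon.

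Clusters also reached over splice sites of exons that were higher in D262V. RBM25, a splicing factor associated with the U1 snRNP, had WT clusters over each splice site of its exon at chr14:73100301-73100362, scored 68 and 49, and 1 D262V cluster scored 114 that spanned the exon. Its inclusion was 10.2%, 2.15% and 6.76% in WT and 35.8%, 25.9% and 21.7% in D262V libraries (21.4 points, adjusted p = 0.139). VPS36, a subunit of the ESCRT-II sorting complex, was at 6.56%, 6.35% and 0% in WT and 26.7%, 41.8% and 17.8% in D262V, with clusters covering the exon scored 219 and 180. C1orf52 was at 55.2%, 49.9% and 53.2% against 65.7%, 83.3% and 87.5%, with clusters over the 5′ splice site scored 132 and 135.

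PARP8, a member of the PARP family, was at 72.3%, 67.9% and 68.2% in WT and at 100% in each D262V library, with a D262V cluster scored 20 spanning the exon and none in WT (adjusted p = 0.139). SCN3A, a sodium channel subunit, was at 91.8%, 87.2% and 84.4% in WT and at 100% in each D262V library, beside downstream clusters scored 66 and 83. ELAVL2, a neuronal RNA-binding protein, was at 22.4%, 0% and 2.13% in WT and 30.6%, 43.1% and 22.6% in D262V on as few as 32 junction reads, and its WT cluster scored 12. Among the other named exons, LOC81691, FHOD3 and TBC1D7 were 26.4, 24.9 and 27.4 points higher, and TBC1D7 had 1 WT library at 18.3% against 52.8% and 68.8% in the others.

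Of SH-SY5Y exons with a cluster and lower inclusion in D262V, DUS2, a tRNA dihydrouridine synthase, was at 91.0%, 100% and 100% in WT and 63.0%, 46.2% and 78.3% in D262V libraries (a difference of -34.5 points, adjusted p = 0.139). Its upstream clusters scored 36 and 32 and ended 75 and 73 nt before the exon at chr16:68025415-68025494. FZD3, a Wnt receptor, was at 38.3%, 47.8% and 58.8% against 9.57%, 10.4% and 22.9%, with downstream clusters scored 140 and 122. FBXL4, a mitochondrial F-box protein, was at 93.0%, 100% and 100% against 72.9%, 76.2% and 72.9%, with clusters over the 5′ splice site scored 132 and 108. ADAMTS9, a secreted metalloprotease, was at 93.0%, 89.5% and 100% against 72.7%, 72.9% and 72.2%, with upstream clusters scored 201 and 107. All 4 had clusters in both lists. A KIF1C exon with fewer junction reads, chosen after its values were seen, differed more, by -40.2 points.

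Long exons carried clusters inside them. HNRNPA3, a paralog of hnRNPA1, had 5 WT and 4 D262V clusters inside an exon of 2569 nt at chr2:177219408-177221976, the highest scored 222 and 211. Its inclusion was 51.0%, 50.0% and 45.7% in WT and 40.0%, 34.4% and 33.0% in D262V libraries, on at least 1753 junction reads each (-13.1 points, adjusted p = 0.204). HIRIP3, a partner of the histone chaperone HIRA, had 6 and 4 clusters on an exon of 938 nt, and was at 74.3%, 76.0% and 72.3% against 56.4%, 46.0% and 47.9%. GLE1, an mRNA export factor linked to motor neuron disease, had downstream clusters scored 33 and 34 beside an exon at 4.93%, 9.02% and 16.4% in WT and at 0% in all 3 D262V libraries.

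**Figure D4:**
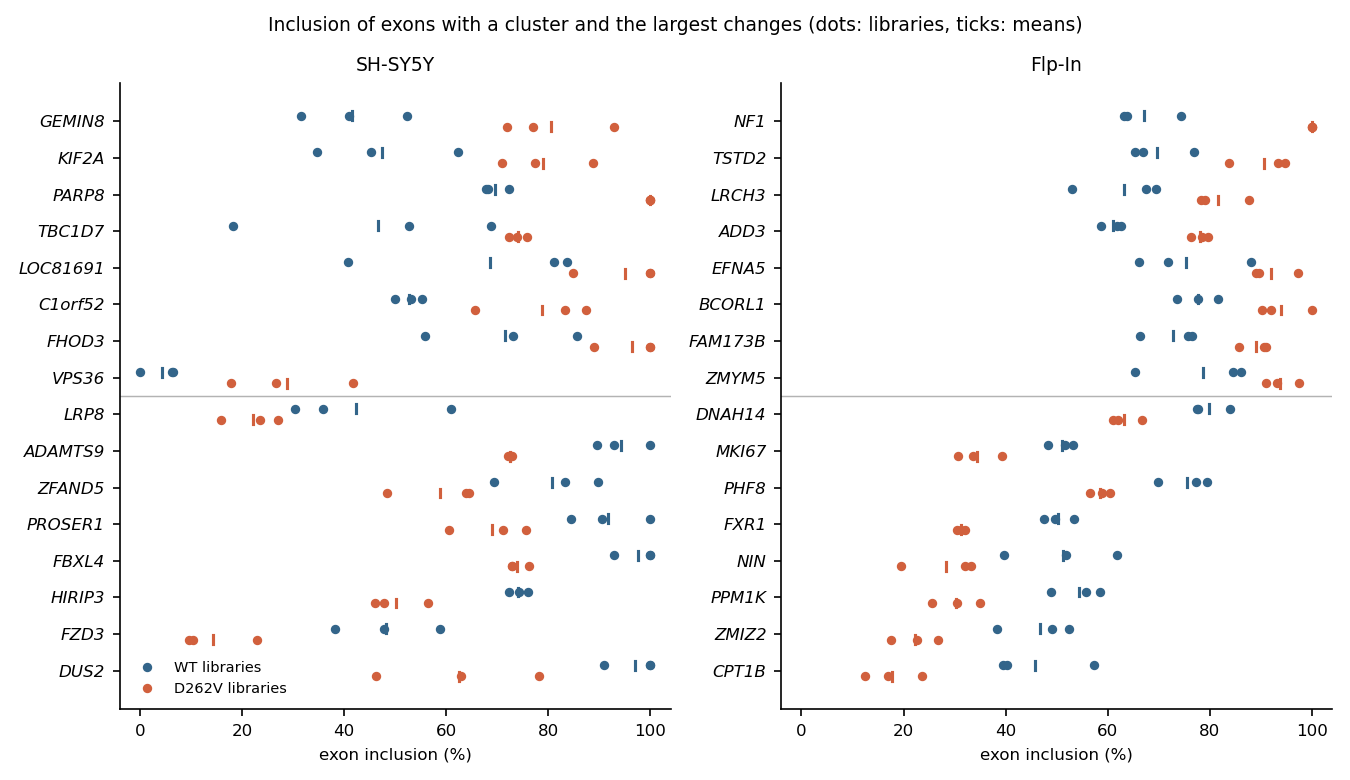
Inclusion in percent (x axis) of the named exons with a cluster in each library, WT in blue and D262V in orange, for SH-SY5Y (usage, no call) and Flp-In (called). NF1 in Flp-In is at 100% in all 3 D262V libraries and between 63.2% and 74.4% in WT, and GEMIN8 has the largest rise plotted for SH-SY5Y.

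In Flp-In, the largest rise among exons with a cluster and at least 50 junction reads in every library was that of NF1, the RAS GTPase-activating protein neurofibromin. The exon at chr17:31230842-31230925 was included at 74.4%, 63.2% and 63.8% in WT and at 100% in each D262V library, a rise of 32.8 points (edgeR adjusted p = 9.37e-05, on at least 116 junction reads). The groups did not overlap, and the call held in all 6 fits that left out 1 library. Its downstream clusters scored 139 (WT) and 148 (D262V) and began 276 and 196 nt after the 5′ splice site, both ending at the same base. TSTD2, LRCH3 and ADD3 rose by 21, 18.4 and 17.1 points, and the LRCH3 call was lost in each of the 6 fits without 1 library (adjusted p 0.0617 to 0.134). ADD3 encodes adducin gamma of the membrane skeleton, was at 58.8%, 62.6% and 61.9% in WT and 79.6%, 76.3% and 78.6% in D262V libraries, and had clusters over the 3′ splice site scored 97 and 69 (adjusted p = 0.0259).

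EFNA5, an ephrin ligand in axon guidance, rose from 71.9%, 88.1% and 66.1% to 89.1%, 97.3% and 89.6% (adjusted p = 0.0295). Its upstream cluster scored 245 in WT and ended 74 nt before the exon at chr5:107387235-107387315, and the D262V cluster scored 312 and ended 4 nt before it. BCORL1, FAM173B and ZMYM5 rose by 16.5, 16.3 and 15.2 points, and ZMYM5 had a cluster in the D262V list only. In fits without 1 library, the adjusted p stayed under 0.05 in 4 of 6 for ADD3, in 2 of 6 for TSTD2, EFNA5, BCORL1 and FAM173B, and in 1 of 6 for ZMYM5. Of these 8 rises, those of NF1 and LRCH3 had downstream clusters, those of EFNA5 and FAM173B upstream ones, and that of ZMYM5 a cluster over the 3′ splice site. TSTD2 had downstream clusters and clusters inside the exon in both lists. ADD3 had a cluster over the 3′ splice site in both lists and 1 inside the exon in the D262V list, and BCORL1 had clusters inside the exon in both lists and 1 over the 5′ splice site in the D262V list.

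Of the 5 exons of listed stress granule genes in Flp-In, all with a cluster, 2 fell and 3 were not called, and over all tested exons 6.34% fell. FXR1, an FMRP-related RNA-binding protein, fell from 49.7%, 47.5% and 53.5% in WT to 31.3%, 30.4% and 32.1% in D262V at the exon chr3:180961468-180961554, by 18.9 points (adjusted p = 0.0197, at least 747 junction reads). Its upstream clusters scored 103 and 59 and ended 125 and 126 nt before the exon. A second listed FXR1 exon was 7.83 points higher and was not called. ATXN2, an RNA-binding protein whose repeat expansion is linked to ataxia and ALS, fell from 100%, 91.8% and 97.2% to 88.9%, 85.3% and 81.8% (adjusted p = 0.0303), with upstream clusters scored 175 and 149 that ended 124 and 122 nt before the exon at chr12:111510385-111510582. The FXR1 call held in all 6 fits without 1 library and the ATXN2 call in 3 of 6.

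CPT1B, the muscle carnitine palmitoyltransferase, had the largest fall at 50 or more junction reads, from 39.6%, 40.2% and 57.3% to 12.5%, 23.6% and 17.0% (a change of -28.0 points, adjusted p = 0.0227), beside a D262V cluster scored 16 and none in WT. ZMIZ2, a coregulator of nuclear receptors, fell from 38.3%, 49.2% and 52.5% to 22.7%, 17.5% and 26.8%, with a WT cluster scored 24 only. MKI67, the proliferation antigen Ki-67, had 6 WT and 7 D262V clusters at an exon of 1080 nt that fell from 51.6%, 53.3% and 48.3% to 39.3%, 30.6% and 33.7%. NIN, a centrosomal protein, had 8 and 10 clusters at an exon of 2139 nt, and fell by 22.9 points. PPM1K, PHF8, DNAH14 and HIRIP3 fell by 24.1, 16.9, 16.6 and 11.0 points. For PPM1K, PHF8, MKI67 and HIRIP3 no fit without 1 library kept the adjusted p under 0.05 (0.0555 to 0.0904, 0.0571 to 0.117, 0.0507 to 0.0898 and 0.0516 to 0.0848). The CPT1B call held in all 6 fits, and those of DNAH14, ZMIZ2 and NIN in 4, 3 and 2 of 6.

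HNRNPA1 itself was listed in Flp-In. The exon at chr12:54283079-54283234, whose inclusion gives the longer hnRNPA1-B form, was at 2.44%, 3.41% and 3.31% in WT and 1.95%, 1.66% and 1.79% in D262V libraries, a fall of 1.25 points (adjusted p = 0.0197, at least 10582 junction reads), below the 10 points of a call. The junction counts do not separate the induced hnRNPA1 copy from the cell's own gene, and the part of the induced copy in this fall was not tested. The WT list had a downstream cluster scored 652 at chr12:54283490-54283688, 256 nt after the exon. The D262V list had none in the window, but a cluster scored 643 at chr12:54283635-54283752 overlaps the WT cluster and begins beyond the limit of the window.

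Exons with a cluster in 1 list of a line showed the same edge effect for some of their highest scores. Of 72 SH-SY5Y clusters on exons found in the WT list only, 9 overlapped a D262V cluster just past the window, and the other counts were 10 of 65 (SH-SY5Y D262V only), 9 of 59 (Flp-In WT only) and 4 of 45 (Flp-In D262V only). HIF1A (208), SNRNP70 (173) and CHD1 (177) were among these in SH-SY5Y. ALCAM (175, WT only), KDM4C (169, D262V only) and CNNM4 (132, D262V only) had no overlapping cluster in the other list. In Flp-In the same held for TBC1D19 (150, WT only), PROK2 (215) and HACD3 (152, both D262V only). KDM4C, a histone demethylase, was at 5.43%, 9.88% and 0% in WT and 13.3%, 15.0% and 28.6% in D262V libraries, and CNNM4 at 0% in all WT libraries and 6.55%, 17.0% and 3.44% in D262V.

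Gene lists chosen with earlier results of these data known were counted for exons with a cluster. In SH-SY5Y, where 35.7% of all listed exons had a cluster in either list, they were 6 of 12 exons of SR proteins and the core spliceosome, 2 of 3 of the hnRNP family, 4 of 6 of neural splicing regulators, 3 of 3 of ALS and FTD genes, 5 of 6 of stress granule components, 2 of 3 of nonsense-mediated decay genes, 3 of 18 of axon and cytoskeleton genes, 3 of 12 of synaptic, vesicle and channel genes, 2 of 9 of chromatin regulators and 0 of 6 of known hnRNPA1 splicing targets. In Flp-In, where the share was 41.4%, they were 6 of 7, 1 of 6, 1 of 2, 3 of 7, 5 of 5, 0 of 1, 3 of 15, 0 of 2, 7 of 15 and 3 of 4 in the same order. The counts are small and have no test. The list of SR proteins and the core spliceosome also holds the kinase CLK1 and the RNA-binding protein gene TIAL1. Some genes are shared between lists, such as TIAL1, ATXN2 and HNRNPA1, so the lists are not separate. Calls in Flp-In among them were FXR1 and ATXN2, which fell, and NF1, which rose. TARDBP, the gene of TDP-43, had clusters in both SH-SY5Y lists beside an exon that differed by -0.592 points.

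CLK1, a kinase of SR proteins, had clusters in both lists in each line at an exon that differed by 4.06 points in SH-SY5Y and -7.29 in Flp-In. A second CLK1 exon, listed in Flp-In with clusters in both lists, was 13.4 points higher in D262V without overlap, and was not called (adjusted p = 0.121). SRSF3, an SR protein, had clusters beside an exon that differed by 7.25 points in SH-SY5Y and -2.97 in Flp-In. SRSF5, SRSF11 and PRPF3 differed by 3.98, 0.835 and 3.81 points.

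The tables of the 2 lines shared 74 exons, and 40 of them had a cluster in at least 1 line (36 in SH-SY5Y, 33 in Flp-In, 29 in both). Of 65 tested for a difference between lines in the D262V effect, 35 passed (53.8%, edgeR three-way interaction, adjusted over the 65), and 23 of the 35 tested exons with a cluster passed. The test is limited to exons that both tables list. Unlike the calls of each line, it was fitted without edgeR's legacy setting. Flp-In calls, 49 and 64 with that setting, were 72 and 98 without it. The three-way test fits a single dispersion per exon across both lines, while the median of each line fitted alone was 0.58 (SH-SY5Y) and 0.0476 (Flp-In). Its p-values therefore do not carry the full spread of the SH-SY5Y libraries, and the effect on these counts was not tested. The test compares log2 odds of inclusion, which near full inclusion can differ widely at almost equal changes in points. The MTX2 exon, chosen after its values were seen, passed (edgeR adjusted p = 0.0119) with inclusion 1.39 points higher in SH-SY5Y and 1.27 points higher in Flp-In, so passing does not mean opposite directions. Exons that shifted in both lines were 6, of which HIRIP3 and CPT1B went the same way. HIRIP3 had clusters in all 4 lists and differed by -24.1 points in SH-SY5Y and fell by 11.0 in Flp-In, and the difference between lines did not pass (adjusted p = 0.483). ASPH, an aspartyl hydroxylase, had an upstream cluster in all 4 lists, was at 87.1%, 78.0% and 87.5% in WT and 96.3%, 93.0% and 94.5% in D262V SH-SY5Y libraries, and fell in Flp-In from 61.3%, 57.0% and 59.1% to 41.7%, 49.1% and 45.5% (adjusted p = 0.0498). No fit without 1 library kept that p under 0.05 (0.0563 to 0.124).

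**Figure D5:**
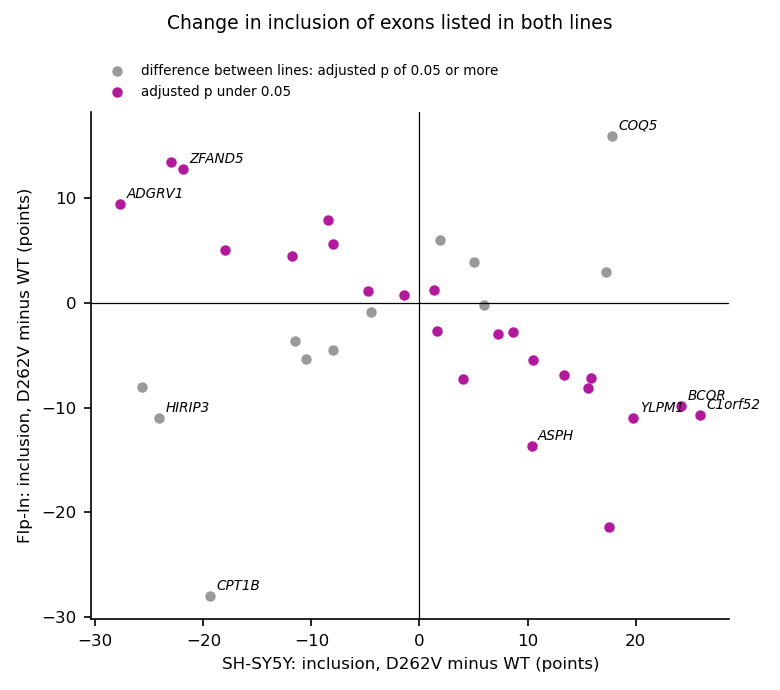
D262V minus WT inclusion in percentage points in SH-SY5Y (x axis) and Flp-In (y axis) for exons that both tables list, that were tested and that had a cluster in at least 1 line, with exons that passed the test of the difference between lines in a colour of their own (the test is on log2 odds, not points). HIRIP3 and CPT1B lie low on both axes, and ASPH, C1orf52 and BCOR are higher in SH-SY5Y and lower in Flp-In.

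Differentiated SH-SY5Y cells were measured in separate libraries. The homozygous table listed 32 of the 509 SH-SY5Y exons with a cluster, with 0 called higher and 1 called lower, against 2.04% and 2.86% of the 980 exons tested there. The heterozygous table listed 43, with 1 and 6 called, against 6.38% and 9.57% of 1504. The 2 comparisons share their WT libraries. KIF1C, a kinesin with a cassette exon of 23 nt at chr17:5019849-5019871 and a D262V cluster, differed by -40.2 points in undifferentiated D262V cells. In differentiated cells it was at 82.2%, 83.3% and 81.3% in WT, fell to 63.8%, 70.5% and 62.7% in homozygous D262V (adjusted p = 0.0351) and to 32.0%, 36.0% and 29.9% in heterozygous D262V (adjusted p = 0.000355).

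Of 12 exons with a cluster that had shifted in undifferentiated cells and were tested in heterozygous differentiated cells, 5 differed in the same direction. The others differed in the opposite direction, among them ADAMTS9 (-21.5 and then 9.32 points), FBXL4 (-23.7 and 11.1) and VPS36 (24.5 and -3.67). These 3 did not count as shifted there. Of the 12, 4 shifted again the same way and 3 the opposite way. Going the opposite way, KIF2A, 31.7 points higher in undifferentiated D262V cells, fell from 93.5%, 95.9% and 97.4% to 82.3%, 77.2% and 78.6% in heterozygous differentiated cells (adjusted p = 0.00377). DOCK10, a guanine exchange factor, was 18.6 points higher in undifferentiated cells and fell by 36.6 points in heterozygous differentiated cells (adjusted p = 0.00643), and MAP3K3 was 21.6 points higher and fell by 13.7. In homozygous differentiated cells the DOCK10 exon differed by -12.0 points, without overlap and not called (adjusted p = 0.0826). There, 5 such exons were tested and 3 differed in the same direction. Of the 5, 1 shifted again the same way and 1 the opposite way. GLE1 was at -10.1 points in undifferentiated and 3.52 in homozygous differentiated cells. The 4 that shifted again the same way in heterozygous differentiated cells were KIF1C, OCRL, ASPH and PIAS2. ASPH was 10.4 points higher in undifferentiated cells and rose by 10.8 points in heterozygous differentiated cells (adjusted p = 0.0448), and PIAS2 was 13.2 and 11.1 points higher (adjusted p = 0.0625, not called). OCRL, a phosphoinositide phosphatase, differed by -14.2 points in undifferentiated cells and fell by 13.2 points in heterozygous differentiated cells. Zygosity and differentiation both differ between these comparisons and cannot be told apart for the heterozygous cells.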

How the data were processed

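RNA-seq and hnRNPA1 irCLIP of 33 samples were used, in 11 groups of 3. The irCLIP cluster lists carry a score per cluster, called by the authors on the merged libraries of a group, per the labels. No label or file header names the caller or the unit of the score. The cassette exon tables, made with JUM, hold junction read counts and percentage usage per library and p-values deposited by the authors, who listed events at an unadjusted p-value of at most 0.05. Gene counts deposited by the authors served for markers and the HNRNPA1 values only, and no label or file header names their strand setting. STAR 2.5.3a, HTSeq, DESeq2, Cufflinks and hg38 are named in the submitters' processing notes.

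Repeated cluster rows were removed. Exon starts were moved by 1 nt, after which 52 of 53 introns readable in RefSeq promoter windows began with GT, against 0 of 53 before. One event whose exon ended before its start was left out. Inclusion against skipping junction counts were tested with edgeR 4.0.16 under R 4.3.3 (glmQLFit with its legacy setting, and glmQLFTest). Each table was fitted alone, with a term per library and Benjamini-Hochberg adjustment, for exons with at least 20 junction reads in every library. The three-way test between lines used glmQLFit without the legacy setting. A call needed an adjusted p under 0.05, a change of 10 points and no overlap between groups. For a single exon the exact permutation test of 3 against 3 libraries cannot go below p = 0.1. The usage classes used for SH-SY5Y were chosen after the test had called no exon there.

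On simulated exons with changed log2 odds of 1 and 2, the test recovered 0% in both tables. With a smaller simulated spread (beta-binomial correlation 0.005 in place of 0.02), inclusion kept at least 0.1 in place of 0.02 from either end and changes of 2 and 4, all chosen after that result, it recovered 96% and 100% in SH-SY5Y (1276 exons) and 95% and 100% in Flp-In (1009 exons). This does not show what the test recovers at the spread of the real SH-SY5Y table, whose median dispersion was 0.58 against 0.0476 in Flp-In.

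Named exons had a cluster in either list and were the 8 largest rises and 8 largest falls per line (called in Flp-In, by usage in SH-SY5Y, at least 50 junction reads), up to 3 per gene list, HNRNPA1, the 5 highest scored clusters per list, exons shifted in both lines, and the 3 highest scored per list found in 1 list only. An exon that this rule names is not reported here. Members, lists and rules were chosen with earlier results of these data known. Replicate numbers were not used to pair libraries, since no label pairs them. Deviations of same-numbered libraries correlated at -0.05 to 0.03 in SH-SY5Y and -0.01 to 0.01 in Flp-In, which cannot settle whether they shared a source. Clusters were not searched for motifs beyond the 1 shown.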

Additional observations from a re-analysis of the deposited data

Results flagged for a closer look

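Of 35 tested exons with a cluster, 23 passed the test of the difference between lines (edgeR three-way interaction, adjusted over 65 exons). It tests the change in log2 inclusion odds between D262V and WT, with a single dispersion per exon for lines of unequal spread. It was fitted without edgeR's legacy setting, which the calls of each line used. The 4 given here are those whose gene the naming rule had picked or that shifted in both lines. Passing exons outside this rule include CLK1 at -8.56 (edgeR adjusted p = 0.00611) and YBEY at 6.71 (edgeR adjusted p = 0.00245). Each value is Flp-In minus SH-SY5Y. BCOR gave -2.68 (adjusted p = 0.0326), with inclusion 24.2 points higher in D262V SH-SY5Y and 9.82 points lower in D262V Flp-In (a change of -9.82). ASPH gave -2.49 (adjusted p = 0.0107), with changes of 10.4 and -13.7 points. C1orf52 gave -2.39 (adjusted p = 0.0211), with changes of 26.0 and -10.7 points. ZFAND5 gave 2.33 (adjusted p = 0.0343), with changes of -21.9 and 12.8 points. BCOR, ASPH and C1orf52 had clusters in all 4 lists, and ZFAND5 in the SH-SY5Y D262V list only.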

How the results depend on the processing

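The order of more included and more skipped exons turned in some settings. Calls in Flp-In, 49 and 64, were 61 and 32 with TMM scaling and 44 and 16 with DESeq2's size factors, and the Flp-In share with a WT cluster, 44.9% and 43.8%, was 20.4% and 21.9% at 100 nt, 51.0% and 53.1% at 500 nt and 53.3% and 61.9% at 100 junction reads. The D262V list, 51.0% and 39.1%, gave 51.0% and 51.6% at 500 nt and 35.7% and 40.0% at 20 points. By region it turned downstream in Flp-In at 100 junction reads (20.0% and 33.3%) and in the exon in SH-SY5Y at or above the median score (7.14% and 8.0%). In all, 160 values moved by less than their counting interval or by under 1.5 times for a count, and 120 moved by more. A narrower or wider window, or fewer clusters, changes a share by construction. In SH-SY5Y the share of the more skipped class with a cluster anywhere in the window stayed below the more included one in both lists under every window, score, read and change setting tried. The authors' deposited adjusted p is not among these settings. Its lower shares for more included exons are given below, and whether the order of the 2 classes holds under it is not shown here. With the replicate number as a block (replicate block) edgeR called 42 more included and 68 more skipped exons in Flp-In and 0 in SH-SY5Y. No label says that libraries of the same number share a source, and the block is no stronger test. Leaving out 1 library at a time gave 14 to 42 more included and 19 to 57 more skipped exons in Flp-In. Read depth per junction, the spread between SH-SY5Y libraries and the merged irCLIP libraries limit these results.

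Calls in SH-SY5Y, which were 0, became 71 more included and 59 more skipped with DESeq2, 48 and 74 with its size factors, 92 and 74 with edgeR's likelihood ratio test and 46 and 32 with the authors' deposited adjusted p. In Flp-In (49 and 64) they were 13 and 14 with DESeq2, 81 and 118 with the likelihood ratio test and 18 and 23 with the authors' deposited adjusted p. Without edgeR's legacy setting (with or without a dispersion trend) the Flp-In calls were 72 and 98. The calls in Flp-In were 15 and 22 at 100 junction reads, 80 and 139 at 5 points and 14 and 20 at 20 points. The likelihood ratio test and the fits without the legacy setting were chosen after seeing the data. The cause was not tested.

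With a window of 100 nt, clusters numbered 396 (SH-SY5Y WT), 388 (SH-SY5Y D262V), 344 (Flp-In WT) and 344 (Flp-In D262V). Shares of more included, more skipped and other exons were 20.8%, 14% and 17.4% (SH-SY5Y WT), 23.4%, 14% and 17.4% (SH-SY5Y D262V), 20.4%, 21.9% and 21.8% (Flp-In WT), and 26.5%, 17.2% and 20.2% (Flp-In D262V). By region in either list of SH-SY5Y, more included exons had 16.2% upstream and 20.1% downstream, more skipped exons 7% upstream, and others 11.1% and 13%. In Flp-In the upstream and downstream values were 16.3% and 14.3%, 15.6% and 7.81%, and 13.3% and 15.8%. With a window of 500 nt, clusters numbered 1218 and 1155 in SH-SY5Y WT and D262V. Shares were 46.1%, 36% and 45.8% (SH-SY5Y WT), 35% and 44.9% for more skipped and other exons (SH-SY5Y D262V), and 49.1% and 45.6% for others in Flp-In WT and D262V.

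With clusters at or above the median score, clusters numbered 392, 378, 394 and 371. Shares were 22.1%, 14% and 20.6% (SH-SY5Y WT), 21.4%, 15% and 19.5% (SH-SY5Y D262V), 23.4% and 26.2% for more skipped and other exons (Flp-In WT), and 30.6%, 18.8% and 25.4% (Flp-In D262V). In SH-SY5Y more included exons had 15.6% upstream, 7.14% in the exon and 14.3% downstream, more skipped exons 5% upstream, and others 13%, 6.95% and 12.5%. In Flp-In more included exons had 10.2% in the exon and 12.2% downstream, more skipped exons 6.25% downstream, and others 18.8%, 12.2% and 15.6%.

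With the cluster midpoint in the window, others had 27% and 27.2% in SH-SY5Y and 33.5% and 32.5% in Flp-In. By region, SH-SY5Y more included exons had 19.5% upstream and 17.5% downstream and others 15.1%, 9.59% and 15.8%, and Flp-In others 17.3%, 14.1% and 18.5%. At 100 junction reads Flp-In WT gave 61.9% and 42.4% for more skipped and other exons, Flp-In D262V 66.7%, 57.1% and 41.4%, and either list 53.3% of more included exons upstream and 29.8% of others downstream. With the authors' deposited adjusted p, more included exons had 26.1% and 28.3% in SH-SY5Y and 61.1% and 66.7% in Flp-In, and at 20 points 35.7% in Flp-In D262V.

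Among named Flp-In exons, 85 fits without 1 library, 19 fits with DESeq2, 16 with the authors' p and 2 with the block lost the adjusted p under 0.05. NF1, FXR1, CPT1B and HNRNPA1 kept it in all 6 fits without a library. No named SH-SY5Y exon had an edgeR adjusted p under 0.05 in the main fit. With DESeq2, 17 of them had an adjusted p under 0.05 and 17 did not. The authors' p gave 7 and 27.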
